A study of Mus musculus with 2 samples.

Results

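The genes described here encode proteins that neutrophils pack into their granules, with a factor and an enzyme of the same cells: Ltf, Camp, Ngp, Lcn2, Retnlg, Chil3, Fcnb, Cebpe and Padi4. They are 9 of the 31017 gene symbols in the count tables, taken as a fixed list that was chosen with earlier results of these data known. They were followed across neutrophils and monocytes of tumours grown from 2 mouse mammary tumour cell lines, PyMT-N and PyMT-M. PyMT is polyoma middle T, an oncogene used to model breast cancer, and the labels do not say what N and M stand for. Line cells were put into the mammary gland of mice, and tumours were taken 4 weeks later at 0.7 to 1 cm across. Viable cells with surface CD45, a marker of blood-derived cells, and without the dead-cell dye DAPI were sorted and sequenced in droplets from the 5′ end of transcripts, with unique molecular identifiers (UMIs) that count molecules. There was 1 library per line, so no difference below has a replicate check and no test was possible. All intervals are 95% intervals of counting error only, which treat UMIs as independent although UMIs of 1 cell are not. The labels give neither the age, sex or strain of the mice nor the number of animals or line clones behind a library.

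Granules are filled in the bone marrow while neutrophils mature, and each granule class holds the proteins made at its stage. Azurophil proteins come first, specific (secondary) granule proteins follow at the myelocyte and metamyelocyte stages, and gelatinase granules and secretory vesicles come last. Transcripts of granule proteins are then lost, while the proteins stay stored in the circulating cell. Ltf encodes lactoferrin, an iron-binding protein of specific granules. Camp encodes the precursor of the antimicrobial peptide cathelicidin, and Ngp neutrophilic granule protein, a relative of the cystatins and cathelicidins. Lcn2 encodes lipocalin-2, which binds bacterial iron carriers and is also made by epithelium, and Retnlg a secreted resistin-like protein of myeloid cells. Chil3 (Ym1) encodes a chitinase-like lectin, and Fcnb ficolin B, a carbohydrate-binding lectin of myeloid precursors. Cebpe encodes C/EBPε, the transcription factor needed for specific granule formation, and Padi4 the enzyme that converts histone arginine to citrulline in the release of neutrophil extracellular traps.

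Ngp, Camp and Ltf are neighbours on mouse chromosome 9 of build GRCm38 and, with Chil3, were the genes most reduced across the neutrophils, so the DNA before these 4 and before Lcn2, which was less reduced, is shown. Camp lies at positions 109847379 to 109849617 on the minus strand, Ngp at 110419747 to 110423012 and Ltf at 111019271 to 111042767 on the plus strand, with 570130 and 596259 bases between neighbours. Each window holds the 250 bases before the RefSeq transcript start (RefSeq table of build GRCm38.p6, which matched 8 of the 9 genes, all but Cebpe). Capitals mark the letters TTNNGNAA, a short form of the site bound by C/EBP factors, or the same letters on the other strand, TTNCNNAA; no matches overlap.
Ngp (chr9:110419558-110419807, plus strand): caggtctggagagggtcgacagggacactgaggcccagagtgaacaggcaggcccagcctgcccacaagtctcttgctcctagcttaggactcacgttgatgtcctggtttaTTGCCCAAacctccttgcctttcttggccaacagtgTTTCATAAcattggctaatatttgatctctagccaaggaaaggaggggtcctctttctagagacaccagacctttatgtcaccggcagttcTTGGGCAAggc
Camp (chr9:109849457-109849706, minus strand): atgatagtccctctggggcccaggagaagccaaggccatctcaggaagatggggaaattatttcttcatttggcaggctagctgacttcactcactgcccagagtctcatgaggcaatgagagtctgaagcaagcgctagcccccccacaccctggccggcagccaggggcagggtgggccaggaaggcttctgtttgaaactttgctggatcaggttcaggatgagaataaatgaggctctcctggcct
Ltf (chr9:111019042-111019291, plus strand): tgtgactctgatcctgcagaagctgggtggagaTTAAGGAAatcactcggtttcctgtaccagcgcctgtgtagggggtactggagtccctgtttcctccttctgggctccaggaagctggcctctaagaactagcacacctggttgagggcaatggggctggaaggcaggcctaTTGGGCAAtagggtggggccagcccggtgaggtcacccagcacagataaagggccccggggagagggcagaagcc
Chil3 (chr3:106167565-106167814, minus strand): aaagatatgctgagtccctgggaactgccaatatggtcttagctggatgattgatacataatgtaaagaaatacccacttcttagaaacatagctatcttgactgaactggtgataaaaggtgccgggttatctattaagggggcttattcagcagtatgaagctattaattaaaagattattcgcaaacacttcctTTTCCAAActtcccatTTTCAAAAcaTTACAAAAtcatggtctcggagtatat
Lcn2 (chr2:32387740-32387989, minus strand): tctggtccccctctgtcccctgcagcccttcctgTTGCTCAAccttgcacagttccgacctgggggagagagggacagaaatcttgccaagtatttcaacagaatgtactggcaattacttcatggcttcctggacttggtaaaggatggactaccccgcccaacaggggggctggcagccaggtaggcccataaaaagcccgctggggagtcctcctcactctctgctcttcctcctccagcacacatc
Ngp and Chil3 held 3 matches each and Ltf 2, counting from the start back at -138, -102 and -11 for Ngp, -53, -37 and -27 for Chil3, and -217 and -75 for Ltf. Lcn2 held 1 match, at -216, and Camp held 0. Of the other genes Fcnb held 2, Retnlg 1 and Padi4 0, although the bases just after the Retnlg table start were in no GENCODE transcript. For the other windows these bases were in a transcript, but not necessarily at its start. By GENCODE positions the Lcn2 window lies inside the annotated gene (32384633 to 32388252). The windows of Ngp, Camp and Ltf end inside theirs. Of 32851 such windows in the mouse table, 36.8% held at least 1 match and 10.9% held 2 or more. The matches describe these letters only.

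Neutrophils were cells with at least 50 UMIs of S100a8 plus S100a9 per 10000 UMIs. S100a8 and S100a9 encode the calcium-binding alarmins that fill neutrophil cytoplasm. This gave 2814 of 4793 cells in PyMT-N, with 6025891 UMIs and a median of 1756.5 per cell, and 46 of 6917 cells in PyMT-M, with 87815 UMIs and a median of 1709.5. The 9 fixed neutrophil markers were each seen in at least 10% of these cells in both libraries, but S100a8 and S100a9 are among them and the rule selects on these. Macrophage markers summed to 612 counts per 1000000 UMIs (CPM) in PyMT-N neutrophils and 6172 CPM in PyMT-M neutrophils. Of these 6 markers, 1 was seen in at least 10% of PyMT-N neutrophils and 5 in at least 10% of PyMT-M neutrophils. In PyMT-N 0 of the 6 were at 0 UMIs, and in PyMT-M 1. The part of macrophage RNA in the results was not tested. For some results, values without cells holding C1q RNA are also given, which left 2700 PyMT-N and 36 PyMT-M neutrophils. In PyMT-N, 56 cells lay just inside the threshold (50 to 60 per 10000), with Lcn2 at 1269 and Retnlg at 441 CPM, and 68 lay just outside it (40 to 50), with Lcn2 at 163 and Retnlg at 496 CPM. Ngp and Camp were at 0 on both sides. In PyMT-M, 0 cells lay just inside and 1 just outside. The libraries shared 53 cell barcodes, 32 of them in PyMT-N neutrophils and 0 in PyMT-M neutrophils.

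The first question was the order in which granule transcripts are lost across PyMT-N neutrophils. Most UMIs of Ngp, Camp, Chil3 and Ltf were in the earliest cells, whereas Lcn2, Retnlg and Padi4 declined stepwise in summed level and were still present in the latest. Cells were ordered by 14 genes of activated, tumour-resident neutrophils, none of them a granule gene, such as Il1b, Cxcl2, Ccl3, Ccl4, Hilpda and Ptgs2, and divided into 5 equal groups from the lowest to the highest share of these late genes. The order is a range of states and not a clock. The earliest group held 4510 of the 5342 Ngp UMIs, 1286 of 1423 for Camp, 489 of 635 for Ltf and 126 of 155 for Chil3. The cells were more spread, since 60 of the 126 cells with Ngp and 32 of the 75 with Ltf were in the earliest group, and 14 cells with Ltf were in the latest.

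Ngp was at 3209, 487, 205, 20.3 and 2.74 CPM from the earliest to the latest group. Camp was at 915, 70.5, 40.1, 5.08 and 1.83 CPM. Ltf was at 348, 80.9, 21.7, 5.08 and 19.2 CPM. All 3 neighbours on chromosome 9 had their highest level in the earliest group, and only Ltf was higher in group 5 than in group 4, with intervals that do not overlap (11.9 to 29.3 against 1.86 to 11.1 CPM). Chil3 was at 89.6, 9.57, 10.0, 3.39 and 1.83 CPM, on 155 UMIs in all. Its middle 3 values had overlapping intervals.

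Lcn2 was at 4164, 2000, 1602, 1244 and 803 CPM over the same groups. Retnlg was at 6818, 3979, 3585, 2590 and 1416 CPM. Both levels went down at every step, with intervals of neighbouring groups that do not overlap. The share of cells with a UMI changed less. It was 50.6, 45.3, 44.3, 44.8 and 36.2% for Lcn2 and 48.0, 45.3, 44.0, 43.3 and 36.9% for Retnlg. Padi4 was at 85.4, 51.4, 29.3, 24.6 and 21.9 CPM, and its last 3 groups were within counting error of each other. Cebpe was at 11.4, 8.70, 9.19, 16.9 and 5.48 CPM, on 63 UMIs, and showed no order beyond counting error. Fcnb had 1 UMI in all PyMT-N neutrophils, in the earliest group, and no order can be given for it.

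**Figure D1:**
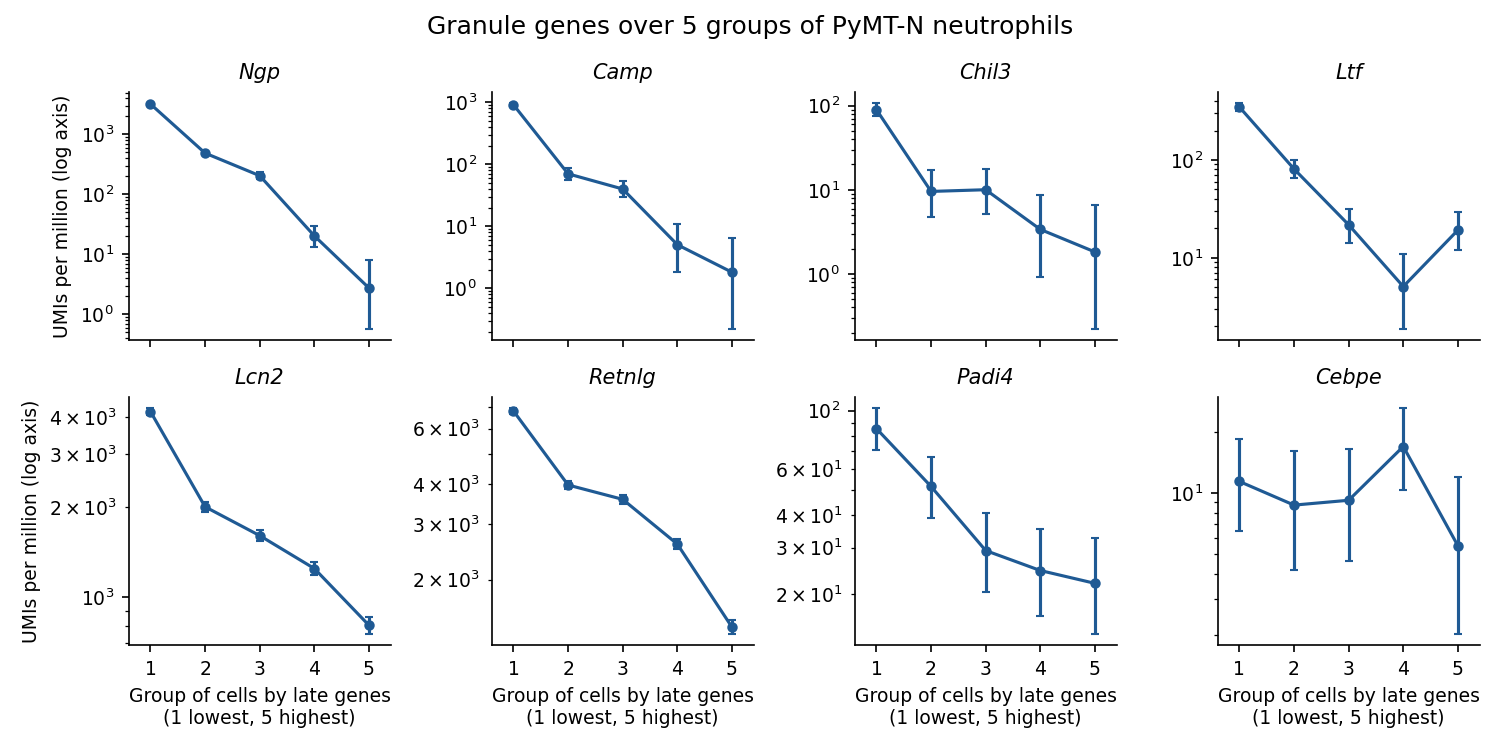
Level of 8 granule genes (CPM, log axes that differ between panels) in the 5 equal groups of PyMT-N neutrophils, from the lowest (1) to the highest (5) share of late genes. Points are summed counts of 1 library with exact Poisson 95% intervals; Ngp was at 2.74 CPM in the latest group and 3209 CPM in the earliest, and Retnlg at 1416 CPM in the latest and 6818 CPM in the earliest.

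Between the latest and the earliest group, the log2 ratio was -10.19 for Ngp (-12.47 to -8.64), -8.97 for Camp (-12.01 to -7.11), -5.62 for Chil3 (-8.68 to -3.73) and -4.18 for Ltf (-4.89 to -3.55). The latest group held only 3 Ngp, 2 Camp and 2 Chil3 UMIs, which is why these intervals are wide. The ratio was -2.37 for Lcn2 (-2.48 to -2.27), -2.27 for Retnlg (-2.35 to -2.19) and -1.96 for Padi4 (-2.66 to -1.32). For Cebpe it was -1.05, with an interval that includes 0 (-2.70 to 0.37). The 8 genes with at least 20 UMIs were all at least 2-fold lower in the latest group, against 11.5% of the 6674 genes measured. Of the 8, 0 were 2-fold higher, against 7.39% of all genes. The list was chosen with earlier results of these data known, so this count is not independent support. Ngp, Camp and Chil3 reached 20 UMIs almost wholly through the earliest group. The median log2 ratio of the 8 genes was -3.28, and that of all 6674 genes was -0.07. Counted from the most reduced of these genes, Ngp was number 1 and Camp number 2, Chil3 was number 15 and Ltf number 52.

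The second group held 7.71% of the earliest level of Camp, 10.7% of that of Chil3, 15.2% of that of Ngp and 23.3% of that of Ltf. For Lcn2 the share was 48.0%, for Retnlg 58.4%, for Padi4 60.1% and for Cebpe 76.5% (31.0 to 179%). The intervals of Camp (6.08 to 9.65%), Ngp (13.9 to 16.6%) and Ltf (18.4 to 29.1%) do not overlap each other, while that of Chil3 (5.20 to 19.8%) overlaps those of Camp, Ngp and Ltf. Within the earliest group itself, the cells with more late RNA (282 cells) held Ngp at 182 CPM, and those with less (281 cells) at 5288 CPM. For Lcn2 the level was 2003 CPM in the cells with more late RNA and 5648 CPM in those with less.

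By the ratio of the latest to the earliest group, Ngp, Camp, Chil3 and Ltf were each more reduced than any of Lcn2, Retnlg, Padi4 and Cebpe under all 8 alternative settings tried, but the order by the second group was not kept. With Il1b and Cxcl2 left out of the late genes, the second group held 35.0% of the earliest Ngp level, 43.7% for Padi4, 44.7% for Chil3, 49.9% for Ltf, 50.9% for Retnlg, 52.9% for Lcn2 and 54.1% for Camp. By this measure Ngp, Camp, Chil3 and Ltf were then not set apart from Padi4, Retnlg and Lcn2. The Cebpe ratio was then 0.64, of the opposite sign. Median depth was 1720 UMIs per cell in the latest group and 1787 in the earliest, but the cells of the latest group held 1094020 UMIs in all and those of the earliest 1405494. The part of depth in the result was not tested. Macrophage C1q RNA was at 11.0 CPM in the latest group and 1069 CPM in the earliest, and the 7 monocyte markers summed to 316 CPM in the latest and 858 CPM in the earliest. Without cells holding any C1q UMI, or without those holding Ly6c2 and Ccr2 RNA, the count of reduced genes was again 8 of 8. Granule RNA and late RNA are shares of the same total, and the 9 genes summed to 2272 of 1000000 UMIs in the latest group and 15640 in the earliest.

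The early transcripts sat in very few cells. In PyMT-N, 126 of 2814 neutrophils held any Ngp UMI, 75 held Ltf and 66 held Camp, whereas 1245 held Lcn2 and 1224 Retnlg. The 24 cells with at least 100 Ngp UMIs per 10000 carried 87.1% of the Ngp UMIs of all neutrophils, 92.5% of those of Camp, 80.8% of those of Ltf and 41.9% of those of Chil3. The same 24 cells carried 24.2% of Lcn2, 22.1% of Padi4 and 8.49% of Retnlg UMIs. These Ngp limits were chosen after values had been seen, and the Ngp level itself is fixed by them.

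Across the 4 groups of cells with 0, under 10, 10 to under 100 and 100 or more Ngp UMIs per 10000 (2688, 75, 27 and 24 cells), Camp was at 4.21, 44.5, 533 and 8524 CPM. Ltf was at 8.96, 3.71, 533 and 3323 CPM, and Lcn2 at 1228, 4678, 10594 and 19483 CPM. Each of these 3 was highest in the cells richest in Ngp. Retnlg behaved otherwise, at 2576, 14371, 23246 and 12669 CPM. Its maximum was in the middle range, where 23246 CPM (22440 to 24073) stands apart from 12669 CPM (12114 to 13243) in the Ngp-richest cells. Padi4 was at 26.3, 119, 237 and 382 CPM, Chil3 at 14.3, 11.1, 66.6 and 421 CPM and Cebpe at 8.78, 14.8, 44.4 and 32.4 CPM. The Chil3 values of the first 2 groups overlap, as do the Cebpe values of the last 3.

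**Figure D2:**
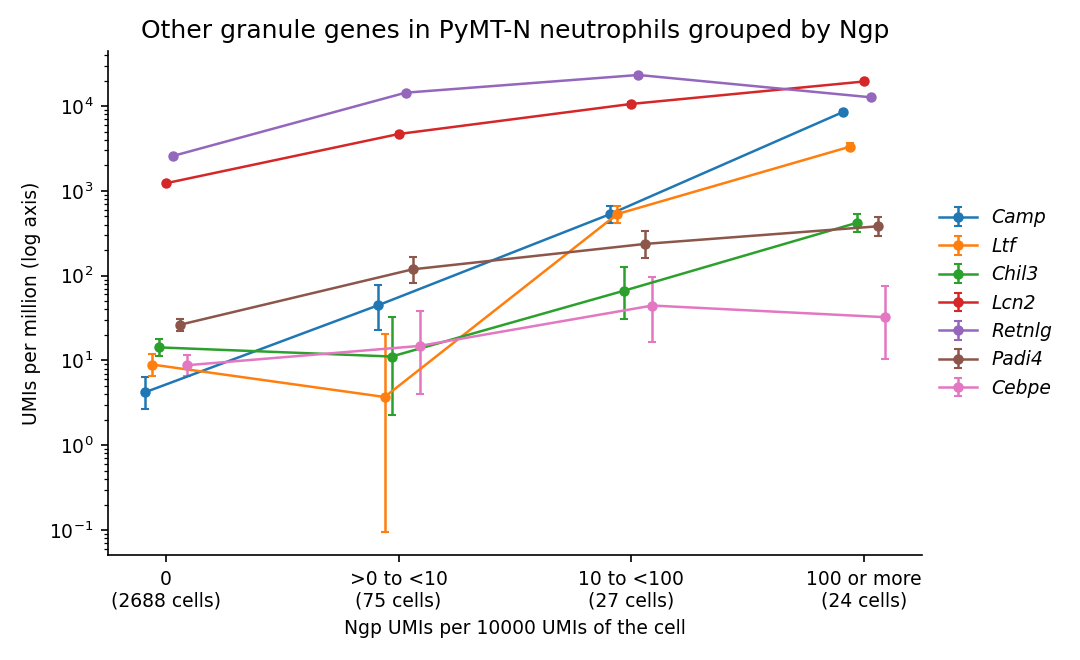
Level of the other granule genes (CPM, log axis) in PyMT-N neutrophils grouped by their Ngp UMIs per 10000, with exact Poisson 95% intervals and the number of cells under each group. Camp, Ltf and Lcn2 are highest in the 24 cells richest in Ngp, and Retnlg is highest one group before, at 23246 CPM.

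The Ngp-rich cells differed in other ways that the grouping did not use. Their median share of late genes was 26.4 UMIs per 10000, against 216 in cells without Ngp, and Il1b, the interleukin-1β gene, was at 1172 CPM in the Ngp-richest cells, against 10106 CPM in those without. Mmp8, the collagenase of specific granules, was at 972 CPM in the Ngp-richest cells and 69.0 CPM in those without Ngp. Cxcr2, a chemokine receptor of mature neutrophils, was at 304 CPM (224 to 405) in the Ngp-richest cells, against 541 CPM in those without Ngp. Csf3r, the receptor for granulocyte colony-stimulating factor, was at 402 CPM in the Ngp-richest cells and 1207 CPM in those without Ngp. Ly6c2, often used to mark monocytes, was at 939 CPM in the Ngp-richest cells, present in 23 of 24, and at 46.6 CPM in cells without Ngp. The macrophage gene C1qb, the T cell gene Cd3e, the proliferation gene Mki67 and the azurophil protease gene Elane were all at 0 in those 24 cells, where 3 UMIs would have been 19.4 CPM. Their median depth was 6454 UMIs per cell, against 1717 in cells without Ngp.

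Shares of cells were compared after each cell was thinned to 1000 UMIs, which left 2657 cells and left out 157. Retnlg was then seen in 39.6% of PyMT-N neutrophils (43.5% unthinned), Lcn2 in 38.0% (44.2%), Padi4 in 3.35% (6.72%) and Ngp in 3.24% (4.48%). Ltf was seen in 1.69%, Camp in 1.39%, Cebpe in 1.13% and Chil3 in 0.715%. Fcnb was in 0 of 2657 cells, which allows a share of up to 0.113%. Among T cells of the same library, which should lack these genes, Retnlg was seen in 1.19% of 168 thinned cells, Ngp in 0.595% and Lcn2 in 0.

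The sets overlapped unequally. Of the 86 thinned cells with Ngp, 94.2% also held Lcn2 and 94.2% Retnlg, whereas 33.7% held Camp and 30.2% Ltf. Of the 37 cells with Camp, 78.4% held Ngp, 64.9% Ltf, 94.6% Lcn2 and 91.9% Retnlg. In the other direction, 8.03% of the 1009 Lcn2 cells and 7.69% of the 1053 Retnlg cells held Ngp. Of the 45 cells with Ltf, fewer held the others, with Lcn2 and Retnlg in 68.9% each and Ngp in 57.8%. Cells with Ngp or Camp thus mostly carried Lcn2 and Retnlg too. The low shares in the other direction follow from cell numbers, since only 86 cells held Ngp. Both shares were above the 3.24% with Ngp among all neutrophils. Lcn2 and Retnlg overlapped in part: 65.8% of Lcn2 cells held Retnlg and 63.1% of Retnlg cells held Lcn2. In all, 46.4% of neutrophils held none of the 6 transcripts Ngp, Camp, Ltf, Chil3, Lcn2 and Retnlg at this depth, 21.6% held Lcn2 and Retnlg with no other, 14.5% Retnlg alone and 12.7% Lcn2 alone. At least 1 of Ngp, Camp, Ltf and Chil3 was held by 128 cells, of which 90 held both Lcn2 and Retnlg and 25 held neither. Of the 19 cells with Chil3, 3 held Ngp, 52.6% held Lcn2 and 36.8% held Retnlg, against 39.6% with Retnlg among all neutrophils.

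Granule genes outside the list were counted by granule class, in lists chosen with earlier results of these data known. Of 7 azurophil genes only Prtn3, the proteinase 3 gene, had enough UMIs in the 2 end groups together to be measured, with 25.6 CPM in the latest and 26.3 CPM in the earliest group. Mpo, the myeloperoxidase gene, had 0 UMIs in all PyMT-N neutrophils and Elane 2. The list of 14 other specific granule genes also held the stefin genes Stfa1, Stfa2, Stfa3 and BC100530, whose place in these granules was not checked. The median log2 ratio of the 14 was -1.24, and 0 were 2-fold higher, against 7.39% of all genes. At least 2-fold lower in the latest group were 7, against 11.5% of all genes. They were Cd177, Itgb2l, Mmp8, Lyz2, Cybb, Wfdc21 and Pglyrp1. Mmp8 was at 36.6 CPM in the latest group and 267 CPM in the earliest (log2 -2.87, -3.38 to -2.39), and Cd177, which holds proteinase 3 on the surface of human neutrophils, at 6.40 CPM in the latest and 162 CPM in the earliest (-4.66, -5.99 to -3.60). Lyz2 and Cybb are also macrophage genes, and the C1q RNA of the earliest group stands beside them. The stefin genes Stfa1 and BC100530, of the same list, were at 436 and 242 CPM in the latest group and 376 and 228 CPM in the earliest. Olfm4 was at 25.6 CPM in the latest and 19.9 CPM in the earliest. Of 6 gelatinase granule genes, 0 were 2-fold lower and 1 higher, Clec5a at 388 CPM in the latest and 159 CPM in the earliest. Mmp9, the gelatinase itself, was at 388 CPM in the latest group and 475 CPM in the earliest. Of 5 measured secretory vesicle genes, 0 were lower and Cd14, the endotoxin co-receptor, was higher, at 2257 CPM in the latest and 911 CPM in the earliest.

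Of 5 measured transcription factors that act on granule genes, 4 were within 2-fold between the latest and the earliest group. Over all genes 11.5% were 2-fold lower and 7.39% 2-fold higher, so this count says little about these factors. Cebpa, the C/EBP factor of myeloid precursors, was lower, at 2.74 CPM in the latest group and 15.7 CPM in the earliest. These values rest on 3 and 22 UMIs (log2 -2.51, -4.90 to -0.78). Cebpb, a C/EBP factor of inflamed and mature cells, was at 9112 CPM in the latest and 5990 CPM in the earliest group, and Gfi1, a repressor needed for neutrophil development, had 2 UMIs in all PyMT-N neutrophils. Among relatives of the listed genes, Retn, the resistin gene, was at 43.0 CPM in the latest and 40.6 CPM in the earliest group, and Chil1 at 300 CPM in the latest and 353 CPM in the earliest (log2 -0.24). Retnla, another resistin-like gene, was at 1.83 CPM in the latest and 650 CPM in the earliest, with 914 of its 923 UMIs in the group that also held most C1q RNA. The other 4 arginine deiminase genes had at most 4 UMIs each in PyMT-N neutrophils, so Padi4 was the only measured gene of its family. Chil4, a near-identical copy of Chil3 with which it could share reads, had 0 UMIs in neutrophils and monocytes of both libraries.

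The second question was whether neutrophils of the 2 tumours differed in these transcripts. PyMT-N and PyMT-M neutrophils had Retnlg levels within counting error over all cells, PyMT-N neutrophils held more Lcn2, and Ngp and Camp were seen in PyMT-N neutrophils alone, in a comparison limited by the 46 PyMT-M cells. Retnlg stood at 3825 CPM in PyMT-N neutrophils, against 4100 CPM in PyMT-M neutrophils (log2 -0.10, -0.25 to 0.05). Without cells holding C1q RNA it was at 3898 CPM in PyMT-N (3847 to 3950), below the 5212 CPM in PyMT-M (4658 to 5813). Lcn2 was at 2060 CPM in PyMT-N neutrophils, against 774 CPM in PyMT-M neutrophils, 2.66-fold higher in PyMT-N (log2 1.41, 1.07 to 1.78). The 24 Ngp-richest PyMT-N cells carried 24.2% of its UMIs there, and PyMT-N neutrophils without Ngp held Lcn2 at 1228 CPM (1199 to 1258). In PyMT-M, 57 of its 68 UMIs were in 10 cells. Unthinned, 44.2% of PyMT-N and 41.3% of PyMT-M neutrophils held Lcn2. Ltf was at 105 CPM in PyMT-N neutrophils, against 79.7 CPM in PyMT-M, on 635 and 7 UMIs (log2 0.40, -0.65 to 1.72), and Padi4 at 44.3 CPM in PyMT-N, against 68.3 CPM in PyMT-M, on 267 and 6 UMIs (log2 -0.62, -1.77 to 0.83).

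Ngp was at 887 CPM in PyMT-N neutrophils and had 0 UMIs in PyMT-M, which makes it at least 25.9-fold higher in PyMT-N against a floor of 3 UMIs in the PyMT-M class (34.2 CPM). Camp was at 236 CPM in PyMT-N neutrophils and also had 0 UMIs in PyMT-M, which puts it at least 6.91-fold higher in PyMT-N. These bounds count UMIs, not cells. Of PyMT-N neutrophils 4.48% held Ngp and 2.35% held Camp, and 0 of 46 PyMT-M cells allows a share of up to 6.52%, so a share as low as that of PyMT-N could go unseen in 46 cells. Chil3 was at 25.7 CPM in PyMT-N and Cebpe at 10.5 CPM, both under the PyMT-M floor, and both had 0 UMIs in PyMT-M. Fcnb had 1 UMI in PyMT-N and 0 in PyMT-M. Of the 8 measured genes, 3 passed 2-fold toward PyMT-N neutrophils (Lcn2, Ngp and Camp), against 7.35% of 8411 genes. In the other direction 0 were 2-fold lower, against 16.5% of all genes. Ngp and Camp reached 20 UMIs through PyMT-N alone and passed only against the floor, so the count is no support for a difference. With genes at 0 UMIs placed at the floor, the median log2 ratio was 0.20, and 0 over all genes. A floor value on the wrong side, as for Chil3 and Cebpe, was entered as a log2 ratio of 0, here and over all genes. Chil3 and Cebpe could thus be called neither higher nor lower. For the 4 genes with UMIs in both libraries the median was 0.15, and for all such genes -0.27. The 9 genes together were at 7194 CPM (7127 to 7262) in PyMT-N and 5022 CPM (4564 to 5513) in PyMT-M neutrophils. Without cells holding C1q RNA this gap was smaller, with the values given in the closing section.

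**Figure D3:**
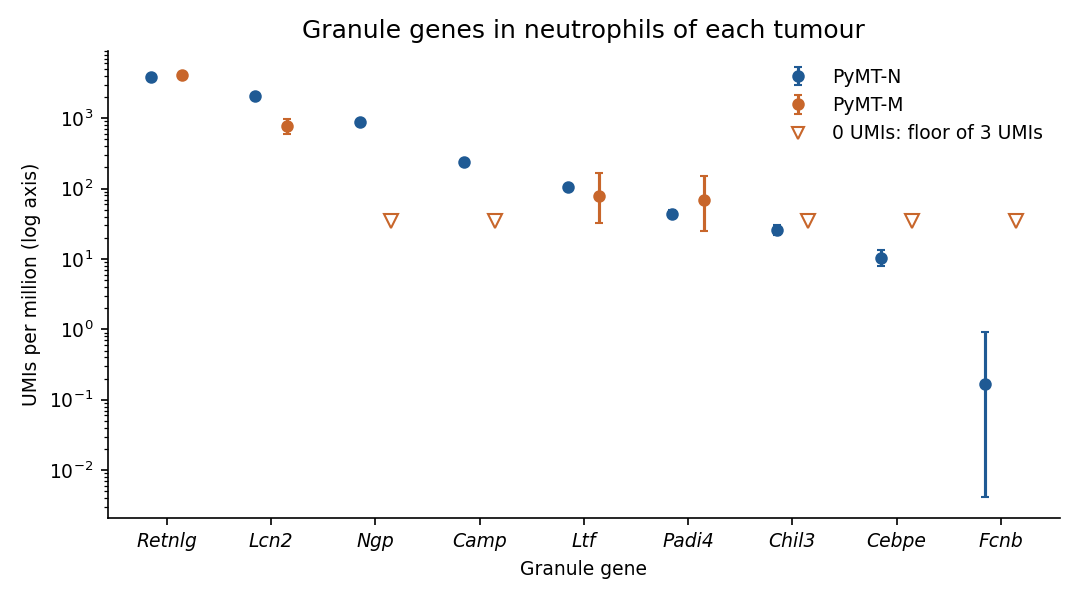
Level of the 9 granule genes in neutrophils (CPM, log axis) of the PyMT-N tumour (blue, left of each pair) and the PyMT-M tumour (orange), 1 library each, with exact Poisson 95% intervals. Open triangles mark the floor of 3 UMIs (34.2 CPM) where PyMT-M had 0 UMIs; Retnlg intervals overlap, those of Lcn2 do not.

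The 2 sets of neutrophils were spread differently over the late genes. Under the limits set in PyMT-N, the 46 PyMT-M cells fell 2, 5, 5, 18 and 16 into the 5 groups, from earliest to latest. The 2 PyMT-M cells of the earliest group held C1q RNA at 9317 CPM. With PyMT-N levels at the PyMT-M mix of groups and depths, the PyMT-M neutrophils would have held 45.7 Ngp, 12.3 Camp, 144 Lcn2, 272 Retnlg and 5.74 Ltf UMIs. They held 0, 0, 68, 360 and 7. The Ngp and Camp values at PyMT-N levels rest mostly on the 2 PyMT-M cells of the earliest group, which held 12128 of the 87815 UMIs. In PyMT-N, 10.7% of the cells of that group held any Ngp and 7.28% any Camp. A value of 0 in 2 cells therefore cannot show a difference. Within the groups, PyMT-M neutrophils had Lcn2 at 742, 1286, 3260, 409 and 169 CPM and Retnlg at 2721, 12040, 8693, 2483 and 2490 CPM, from earliest to latest. Both were lower in groups 4 and 5 than in groups 2 and 3, in groups of 2 to 18 cells. After thinning, Retnlg was seen in 56.1% of 41 PyMT-M neutrophils (39.7 to 71.5%), Lcn2 in 29.3% (16.1 to 45.5%) and Padi4 in 4.88%, and each of the other genes in 0. Ltf was nonetheless in 5 of the 46 cells unthinned (10.9%), while Ngp, Camp, Chil3, Cebpe and Fcnb were in 0. The Retnlg share was 39.6% (37.8 to 41.5%) and the Lcn2 share 38.0% (36.1 to 39.9%) in PyMT-N.

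The third question was which of these transcripts monocytes carry. Chil3 was the 1 gene of the list that was plainly a monocyte transcript in both tumours. Monocytes were cells under the neutrophil threshold with at least 2 Ly6c2, 1 Ccr2 and 1 Lyz2 UMIs, little C1q and no lymphoid UMI, which gave 141 PyMT-N and 75 PyMT-M cells, with median depths of 6036 and 5944 UMIs. All 7 fixed monocyte markers were seen in at least 10% of them in both libraries, but the rule itself requires Ly6c2 and Ccr2. By the same measure, 5 of 9 neutrophil markers passed in PyMT-N monocytes and 3 in PyMT-M monocytes. Of 6 macrophage markers, 3 passed in monocytes of each library. Chil3 was at 280 CPM in PyMT-N monocytes (253 UMIs, in 77 of 141 cells) and at 920 CPM in PyMT-M monocytes (422 UMIs, in 43 of 75 cells). PyMT-N monocytes thus held less Chil3, with a log2 ratio of PyMT-N over PyMT-M of -1.72 (-1.95 to -1.49). T cells of PyMT-N held 0 Chil3 UMIs, and those of PyMT-M held it at 1.07 CPM. Against neutrophils, Chil3 in monocytes was 10.9-fold higher in PyMT-N (8.88 to 13.4). In PyMT-M, where neutrophils had 0 UMIs, it was 26.9-fold higher against the floor of 3 UMIs, with the interval starting at 21.8.

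After thinning to 1000 UMIs, Chil3 was seen in 15.6% of PyMT-N monocytes (10.0 to 22.7%, 54.6% unthinned) and 36.0% of PyMT-M monocytes (25.2 to 47.9%, 57.3% unthinned), and in 0 of 168 and 0 of 684 T cells. The difference between the tumours thus lay more in UMIs per cell than in the unthinned share of cells. Free RNA of neutrophils in the droplets would hold Chil3 and S100a8 in the ratio they have in neutrophils. At that ratio the S100a8 of PyMT-N monocytes would bring 0.0426 Chil3 UMIs, and 253 were counted. The monocyte rule itself limits S100a8, no profile of free RNA was measured, and the part of free RNA was not tested. In PyMT-N, the 24 Ngp-richest neutrophils held Chil3 at 421 CPM (325 to 537), above the monocytes at 280 CPM (247 to 317), and neutrophils without Ngp held it at 14.3 CPM. Of all PyMT-N Chil3 UMIs, 38.7% were in monocytes and 23.7% in neutrophils. Of all PyMT-M Chil3 UMIs, 52.4% were in monocytes and 0 in neutrophils. Macrophages held Chil3 at 32.1 CPM in the PyMT-N tumour, against 6.93 CPM in the PyMT-M tumour.

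The other genes were low or at 0 in monocytes. Lcn2 was at 21.0 CPM in PyMT-N monocytes (19 UMIs in 11 cells) and 13.1 CPM in PyMT-M monocytes (6 UMIs), and in T cells at 0 in PyMT-N, against 115 CPM in PyMT-M. Almost all of the PyMT-M T cell value came from 2 cells with epithelial RNA, which held 417 of 429 UMIs, and without them it was 3.25 CPM. At the neutrophil ratio to S100a8, PyMT-N monocytes would hold 3.41 Lcn2 UMIs, and 19 were counted. Epithelial cells of PyMT-N also held Lcn2, at 2647 CPM, and that ratio leaves them out. Padi4 was at 8.85 CPM in PyMT-N monocytes, against 15.3 CPM in PyMT-M monocytes, on 8 and 7 UMIs, and in T cells at 1.42 CPM in PyMT-N, against 0.536 CPM in PyMT-M. Cebpe had 3 UMIs in PyMT-N monocytes, all in 1 cell, and 1 in PyMT-M. Fcnb had 3 UMIs in PyMT-N monocytes, in 3 cells, and 0 in PyMT-M. Retnlg, Ngp and Ltf had 1 UMI each in PyMT-N monocytes and 0 in PyMT-M, and Camp had 0 in both. For Retnlg the neutrophil ratio would have given 6.34 UMIs in PyMT-N monocytes. The part of free RNA in these counts was not tested.

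Levels in monocytes and T cells had separate intervals, with monocytes higher, for 2 of the 9 genes in each tumour. These were Lcn2 and Chil3 in PyMT-N, where 10.6% of all genes with a UMI did so, and Chil3 and Padi4 in PyMT-M, where 12% did. These percentages correspond to about 1 gene of 9, so the counts say little about the list.

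**Figure D4:**
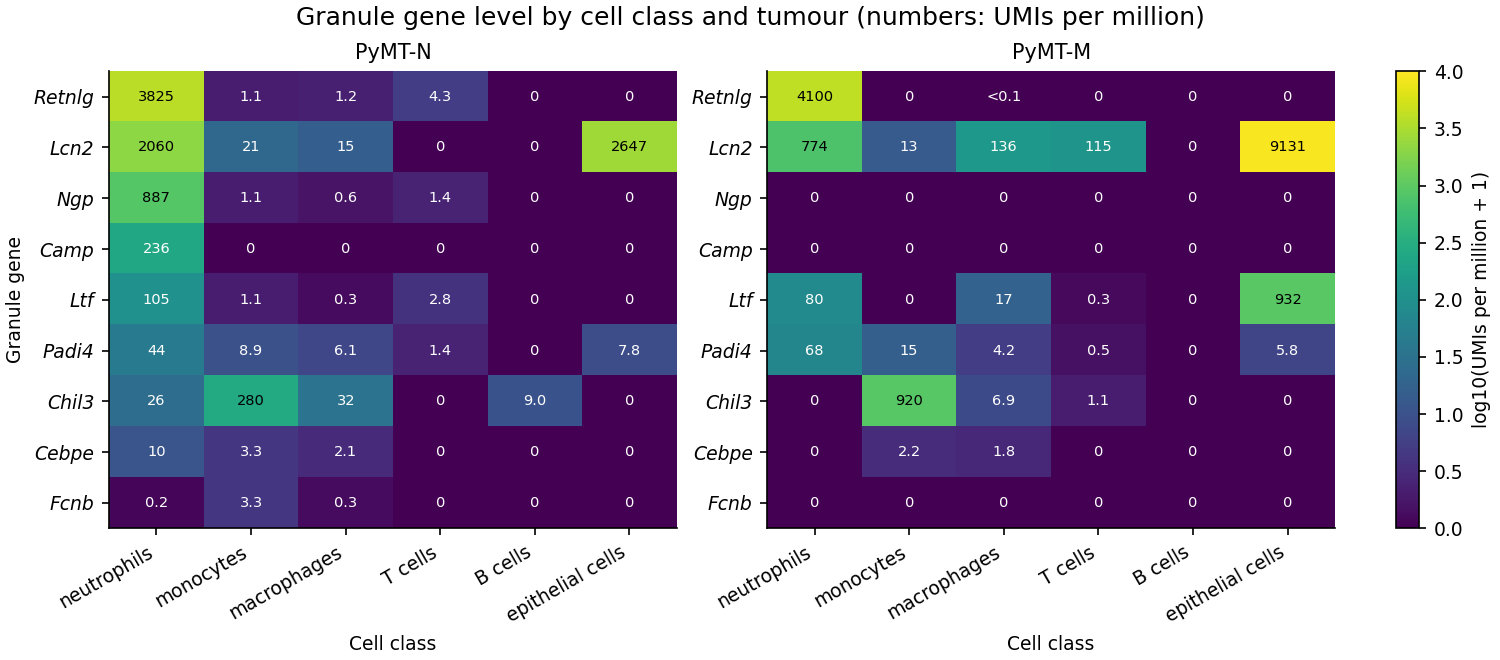
Level of each granule gene (number and colour, CPM; colour on a log10(CPM + 1) scale) by cell class in the PyMT-N library (left) and the PyMT-M library (right). Retnlg, Ngp and Camp are at 4.27 CPM or less in the other classes shown, Chil3 is highest in monocytes (280 CPM in PyMT-N, 920 CPM in PyMT-M) and Lcn2 is highest in epithelial cells.

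Retnlg was at 72.1 CPM in the 972 PyMT-N cells that fell in no named class, on 200 UMIs in 58 cells. Of all UMIs in PyMT-N, neutrophils held 99.9% for Ngp, 99.7% for Camp, 99.1% for Retnlg, 97.4% for Ltf, 94.9% for Lcn2, 85.6% for Padi4 and 68.5% for Cebpe. In PyMT-M neutrophils still held 99.4% of Retnlg UMIs, but 0.340% of those of Lcn2 and 0.353% of those of Ltf. There 70.6% of Lcn2 and 72.6% of Ltf UMIs were in 153 epithelial cells, that is, cells with at least 3 UMIs of Epcam, Krt8, Krt18 and Krt19, a class added after values had been seen. Lcn2 was at 2647 CPM in the 15 epithelial cells of PyMT-N and 9131 CPM in those of PyMT-M. Ltf was at 0 in PyMT-N epithelial cells and at 932 CPM in PyMT-M epithelial cells, in 17 of 153 cells. Epithelial markers in the 46 PyMT-M neutrophils summed to 45.6 CPM, with Krt8 and Krt19 at 0, and the part of epithelial RNA in their 7 Ltf and 68 Lcn2 UMIs was not tested. Of the 3947 Lcn2 UMIs in PyMT-M macrophages, 3505 were in 20 cells, 19 of which held an epithelial marker. Padi4 and Cebpe were at 4.24 and 1.76 CPM in PyMT-M macrophages, which were 5162 of the 6917 cells and held 75.0% and 57.3% of the UMIs of these genes in that library.

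Genes most like each granule gene were taken over 13 groups, the 5 groups of PyMT-N neutrophils and 4 other classes in each library, as the highest Pearson correlation of log2(CPM + 10) among 4838 genes. The groups share libraries and depth, so r is a description. Ngp was closest to Ggt1 (r = 0.97), Ceacam10 (0.94) and 4933408B17Rik (0.93), and Camp and Ltf shared Ggt1 and Ceacam10 among their closest 3. Ltf was also close to Ly6g (0.86), the surface protein used to sort mouse neutrophils, at 39.3 CPM in the latest and 330 CPM in the earliest group. Retnlg was closest to Prok2, a secreted peptide of neutrophils (r = 0.996). Lcn2 was closest to Grina (0.96) and G0s2 (0.95), a neutrophil marker that was at 2867 CPM in the latest and 1980 CPM in the earliest group. Padi4 was closest to Mmp8 (0.97), and Chil3 to Xdh (0.89), the xanthine dehydrogenase gene.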

How the data were processed

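Both libraries were deposited as raw UMI counts per gene and barcode, made by the authors with no normalisation; the matrices name software version 3.1.0, per the file headers. Cell Ranger, Seurat and build mm10 are listed, without their role, per the submitters' processing notes. PyMT-N held 14907736 UMIs in 5020 barcodes and PyMT-M 43977988 in 7476. Barcodes under 200 genes or over 10% mitochondrial UMIs were left out (26 and 119). Scrublet (scanpy 1.11.5) marked 0 doublets by its automatic threshold, so the 201 and 440 highest scores (0.8% per 1000 barcodes) were removed, leaving 4793 and 6917 cells.

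Classes were set per cell from raw UMIs, with no deposited annotation and no clustering: macrophages by 20 C1q UMIs per 10000, T cells by 2 Cd3 UMIs, epithelial cells by 3 UMIs of Epcam, Krt8, Krt18 and Krt19. Counts were summed per class and given as CPM, with exact Poisson intervals, Clopper-Pearson intervals for shares and conditional binomial intervals for ratios (Python 3.11.15, numpy 2.4.6, scipy 1.17.1). A ratio needed 20 UMIs in the groups compared, and a call 2-fold. Where a class had 0 UMIs, 3 UMIs in it served as the floor. The ratio calculation was tested on simulated counts with known 4-fold changes.

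All 9 listed genes are described. Other genes came from 9 lists of granule, regulator and related genes, named by count and by level or size of difference, and from the 3 closest patterns per gene. The listed genes, lists and settings were chosen with earlier results of these data known, and the Ngp limits, the epithelial class and the genes added beside them after values were seen. PyMT-M cells use the limits of the 5 groups set in PyMT-N. Alternatives changed the filters, doublet removal, thresholds, cell ordering, monocyte rule and thinning depth. RefSeq promoter sequences and GENCODE positions of GRCm38 were read by gene.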

Additional observations from a re-analysis of the deposited data

How the results depend on the processing

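With 1 library per line, cell sampling and differences between animals are not in any interval. The count of 3 genes past 2-fold in PyMT-N neutrophils, with Ngp and Camp against the floor, was kept under every alternative run for it. So was the count of 2 genes above T cells in monocytes of each tumour. The 8 genes reduced across PyMT-N neutrophils became 7 with doublets kept, with 400 genes per cell, with a neutrophil threshold of 100 per 10000 and with Il1b and Cxcl2 left out of the late genes, each time without Cebpe, whose log2 ratio in that last setting was 0.64 (-0.61 to 1.92). The summed level of the 9 genes in PyMT-N neutrophils was 6760 CPM with doublets kept, 7791 CPM at the threshold of 100 and 7319 CPM without C1q-holding cells, and in PyMT-M neutrophils 6345 CPM without C1q-holding cells. The cause was not tested. Of 36 shares of cells, 14 were higher beyond their interval without thinning and 8 lower at 500 UMIs, as fewer UMIs per cell were read. Leaving out neutrophils with Ly6c2 and Ccr2 RNA and T cells with 20 Lcn2 UMIs was chosen after seeing the data; Chil3 in PyMT-N neutrophils was then 20.5 CPM, and the counts did not change. No paired analysis was possible because each line has 1 library and no result comes from a test.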

Other observations

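Monocytes with much Chil3 RNA were set beside those without it in each tumour, with genes and limits chosen after values were seen. In PyMT-M, the 25 monocytes with at least 5 Chil3 UMIs held H2-Ab1, a gene of the class II antigen-presenting molecules, at 175 CPM (113 to 259), and the 32 monocytes without Chil3 held it at 2509 CPM (2297 to 2735). Ly6c2 was at 1009 CPM in the Chil3-rich and 1001 CPM in the Chil3-free PyMT-M monocytes, and Plac8, another monocyte gene, at 2060 and 1288 CPM. In PyMT-N, the 22 Chil3-rich monocytes held H2-Ab1 at 1797 CPM (1596 to 2016) and the 64 Chil3-free monocytes at 1384 CPM (1270 to 1504), the opposite order. S100a8 was at 217 CPM in the Chil3-rich and 42.7 CPM in the Chil3-free PyMT-N monocytes. Cells of 1 library are not replicates, and the difference between the tumours was not tested.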
